A study of Mus musculus with 70 samples.

Results

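The step from CLP to CILP was examined in the bone marrow of mice without Tcf7, the gene that encodes the transcription factor TCF-1. CLP are, in this field, common lymphoid progenitors, and CILP are common innate lymphoid progenitors, which give rise to the innate lymphoid cells (ILC). The libraries were chosen by their labels alone: all those of the Tcf7 knockout (TCF7-/-) labelled CILP, 4 in number, and all those labelled CLP, 5 in number, out of 70 samples in the series. The same step in wild-type mice, with 7 CILP and 8 CLP libraries, served as the reference. Each sample held 100 cells sorted by flow cytometry into lysis buffer, and their polyadenylated RNA was amplified linearly and sequenced from the 3′ side by CEL-seq. No treatment is given for any of these groups. The Tcf7 allele, the mouse strain, the age, the sort gates and the number of animals behind a sample are not given in the sources used here. Nothing says that libraries of a group came from separate animals, so the p-values measure the spread between libraries, which may be technical. The fit across genes also drew on libraries of other cell types for its estimate of spread.

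TCF-1 binds DNA through a high-mobility-group box and can recruit β-catenin or Groucho-family (TLE) cofactors. It is best known for early T cell specification in the thymus, and it is also required for normal development of several ILC lineages. In the bone marrow, progenitors on the way to ILC are known to switch on Gata3, Id2, Tox and Zbtb16 (the gene of PLZF) and to lose the lymphoid priming genes of CLP, such as Flt3, Dntt and the recombination genes. Id2 is an inhibitor of E proteins, the factors that drive B and T lineage genes.

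Levels are given as CPM (read counts as a share of the scaled library total, per 1e6), in the order of the replicate numbers, which only name libraries. Replicates 1 and 2 of both knockout groups came from sequencing batch 2 and the others from batch 1. Libraries were shallow: total counts ran from 72272 to 230469 in knockout CLP and from 44089 to 432561 in knockout CILP, with medians of 140651 and 56609. In wild type they ran from 81976 to 246119 in CLP and from 42266 to 624668 in CILP. At the median depth of knockout CILP a single count was therefore worth well above 10 CPM, and a 0 there does not show absence. A gene was called when its Benjamini-Hochberg adjusted p over all 10972 genes tested was under 0.05 in edgeR's quasi-likelihood test, with batch as a term. Log2 fold changes are CILP against CLP from that fit. The value after ± is the absolute log2 fold change over the square root of that test's F statistic. It stands in for a standard error and is unreliable where groups hold only 0 counts. Where all libraries of a group had 0 counts, the fold is a lower bound against 3 counts over that group.

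Knockout CILP libraries were not alike. Replicates 1 and 4, one from each batch, held transcripts of granulocytes and red cells at high levels. The summed level of 17 myeloid markers was 0.982, 0.146, 0.00128 and 0.996% of the scaled total in knockout CILP replicates 1 to 4, against 0.0124 to 0.455% in knockout CLP, 0.0055 to 0.121% in wild-type CLP and 0 to 0.189% in wild-type CILP. Of these markers 8, 7, 1 and 9 had counts in the 4 knockout CILP libraries, and Mpo, Elane, Prtn3, Itgam and Ms4a3 were at 0 in all of them. Ngp, a granule protein of maturing neutrophils, stood at 919.8, 22.2, 0 and 1369.5 CPM there, and at 0, 0, 0, 23.8 and 0 CPM in knockout CLP. Hba-a2, an α-globin gene, stood at 7398, 301, 0 and 28191 CPM in knockout CILP and at 0, 12.8, 314, 758 and 1034 CPM in knockout CLP. Erythroid and megakaryocyte markers summed to 1.17, 0.241, 0.0243 and 3.27% in knockout CILP, against 0.000894 to 0.173% in knockout CLP. So replicates 1 and 4 were high in both lists, replicate 2 was intermediate and replicate 3 was low. Knockout CLP replicate 4 was also high in myeloid markers, at 0.455%. In pooled cells, fewer cells of a type and less RNA per cell cannot be told apart. For genes described below whose call changed without replicates 1 and 4, the adjusted p without them is given.

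**Figure D1:**
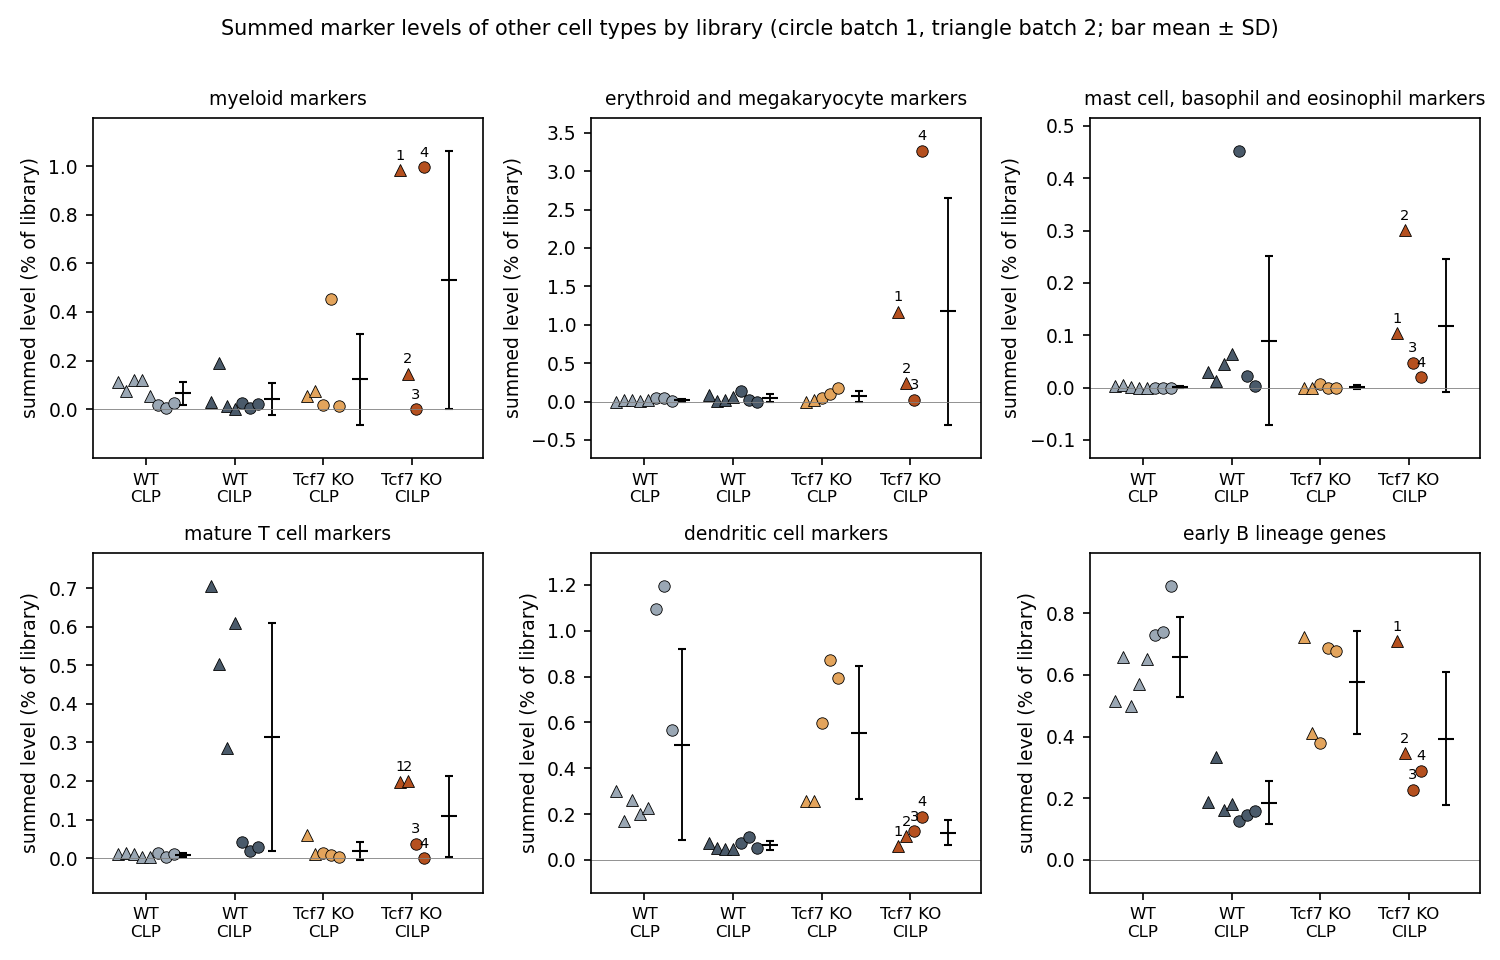
Summed level of marker lists in each library, in percent of the scaled library total, for wild-type (WT) and Tcf7 knockout (KO) CLP and CILP. Points are libraries (circles batch 1, triangles batch 2, knockout CILP numbered by replicate) and bars are mean ± SD; knockout CILP replicates 1 and 4 are highest for myeloid and erythroid markers.

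Tcf7 itself was set against the labels. In CLP it cannot check them, since wild-type CLP held almost no Tcf7 counts. Knockout CLP held 26.8, 0, 13.1, 0 and 19.9 CPM and knockout CILP held 0, 63.4, 25.5 and 35.6 CPM. Wild-type CLP held 0 CPM in 7 of 8 libraries, whereas the lowest, median and highest wild-type CILP libraries held 166, 385 and 779 CPM. All 4 knockout CILP libraries thus lay below every wild-type CILP library (a difference of -4.59 in log2(CPM + 1), exact 2-sided permutation p = 0.00606, 0.0121 adjusted over 2 comparisons). In CLP the difference was 2.20 with the knockout higher (exact permutation p = 0.0699). Low counts of Tcf7 remained in 6 of the 9 knockout libraries, and a 3′ tag outside the deleted part would not report the deletion. Across the knockout step Tcf7 was not called (log2 fold change 1.26 ± 1.14, adjusted p = 0.72), against 8.02 ± 1.12 (adjusted p = 9.85e-08) in wild type. The test of the difference between those steps gave an adjusted p of 0.0834.

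Id2 and Zbtb16 rose without Tcf7, and Gata3 had counts in every knockout CILP library at a level below the wild-type range. Id2 was at 0 in all 5 knockout CLP libraries and at 439.9, 751, 1876 and 231 CPM in knockout CILP, at least 207-fold higher (adjusted p = 0.00401). These libraries overlap the wild-type CILP range of 79.6 to 2286 CPM. Zbtb16 was at 0 in all knockout CLP libraries and at 40, 165, 243 and 0 CPM in knockout CILP, at least 28.1-fold higher (adjusted p = 0.00705). It was found in 3 of 4 libraries, and the call was lost without CILP replicate 3 (adjusted p = 0.0775). Wild-type CILP spanned 186 to 524 CPM, and the lowest, median and highest libraries held 186, 325 and 524 CPM. Gata3, a zinc finger factor that ILC and T cells need, stood at 17.9, 0, 58.8, 0 and 0 CPM in knockout CLP and at 140.0, 459.6, 664 and 88.9 CPM in knockout CILP. The knockout groups do not overlap, yet the call was missed (log2 fold change 4.32 ± 1.26, adjusted p = 0.121). It was called by DESeq2 (adjusted p = 0.0101) and in batch 1 alone (0.00104), and not in batch 2 alone (0.547). Id2 and Zbtb16 were likewise called in batch 1 alone (4.27e-13 and 0.00588) and not in batch 2 alone (0.402 and 0.547), which left 2 libraries in each group. Wild-type CILP held 912, 1923 and 4179.7 CPM (lowest, median, highest), so the highest knockout library lay below the lowest wild-type one. The difference between the Gata3 steps gave -0.10 (adjusted p = 1), with 0 to 588 CPM in wild-type CLP.

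Exact permutation tests of log2(CPM + 1) over the 4 and 5 knockout libraries gave p = 0.0159 for Gata3 and for Id2 (0.0238 adjusted over 3 genes), the smallest p this design can give. Zbtb16 gave p = 0.0952. These tests rearranged libraries without regard to batch, unlike the fit across genes. In the same libraries, genes that mark CLP moved the other way or were not called. Flt3, the receptor of a growth factor for early lymphoid cells, stood at 286, 295, 169.9, 200.2 and 209 CPM in knockout CLP and 0, 3.17, 0 and 0 CPM in knockout CILP, with no overlap. Dntt, the terminal transferase of recombining lymphocytes, stood at 7072, 5758, 4985, 3817 and 3518 and 479.9, 12.7, 0 and 17.8 CPM. Ly6d, a marker of B-biased CLP, stood at 2342, 1334, 1182, 3960.1 and 3692 and 419.9, 0, 0 and 1174 CPM and was not called (adjusted p = 0.359, or 0.0167 without CILP replicates 1 and 4). Of these CLP genes Flt3 and Dntt were called lower in CILP and Ly6d was not. The other genes used as CLP markers, Il7r, Rag1 and Ebf1, were not called either and are described below. Their adjusted p included 0.232 for Rag1 (0.0284 without CILP replicates 1 and 4) and 0.929 for Ebf1.

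**Figure D2:**
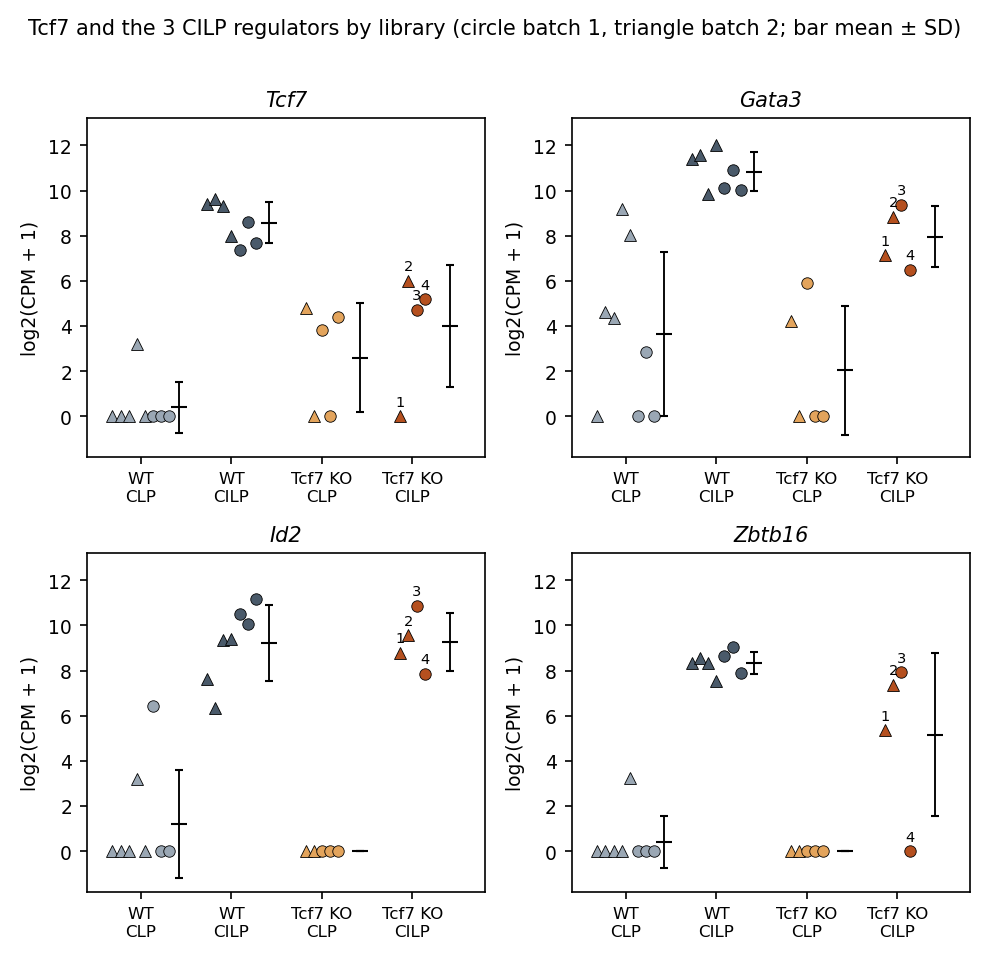
Level of Tcf7, Gata3, Id2 and Zbtb16 in log2(CPM + 1) in each wild-type (WT) and Tcf7 knockout (KO) library of CLP and CILP (circles batch 1, triangles batch 2, knockout CILP numbered by replicate; bars mean ± SD). Id2 is at 0 in all 5 knockout CLP libraries and present in all 4 knockout CILP libraries, and Tcf7 in knockout CILP stays below every wild-type CILP library.

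Over all genes, 58 of 10972 (0.529%) were called across the knockout step, 40 higher in CILP (0.365%) and 18 lower (0.164%). Of the 40 that rose, 20 had 0 counts in all knockout CLP libraries, and 21 had 0 counts in knockout CILP replicate 1, the shallowest library. In 27 of the 58 the knockout groups did not overlap, 9 among those higher and all 18 among those lower. The share over all genes tested is not given, and the 58 were called on these same values, so the lack of overlap is only a description. In wild type 257 genes rose (2.34%) and 216 fell (1.97%), with more libraries in each group. Without knockout CILP replicates 1 and 4 the knockout step had 70 calls, 56 higher and 14 lower, of which 46 were among the 58. Batch 1 alone gave 166 calls (67 higher, 99 lower) and batch 2 alone gave 1, Trbc1. A fit of the 2 knockout groups alone called 25 of 2432 genes tested, 7 higher and 18 lower, so the excess of genes higher did not hold there. DESeq2 called 151 genes with a more even split, 87 higher and 64 lower, and limma-voom called 294, 160 and 134; they shared 44 and 55 genes with the 58. At an unadjusted p under 0.05 there were 1323.

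The genes called without Tcf7 were largely those called with it. Of the 58, 47 were called in the same direction in wild type, 30 higher and 17 lower, and 0 in the opposite direction. They make up 81.0% of the knockout calls and 9.94% of the 473 wild-type calls. Over all genes tested, 2.34% were called higher and 1.97% lower in wild type. Both steps came from 1 fit with a shared filter and estimate of spread, which can favour the same genes in both. Read the other way, 202 of the 257 genes that rose in wild type (78.6%) had a positive fold change in the knockout, against 45.7% of all genes tested. Of the 216 that fell, 181 (83.8%) had a negative one, against 54.2% of all genes. Their fold changes were smaller in the knockout: the median log2 value of the genes higher in wild type was 5.23 there and 2.32 in the knockout. With genes at 0 in a group set to their bound these medians were 4.08 and 1.39. For genes lower in wild type the medians were -4.51 and -1.91, or -3.94 and -1.56 with bounds. These genes were chosen by their wild-type test, so the medians are a description and not a test of the difference. The median over all genes was -0.16 in the knockout and 0.06 in wild type, and DESeq2's size factors moved the knockout value to -0.01.

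**Figure D3:**
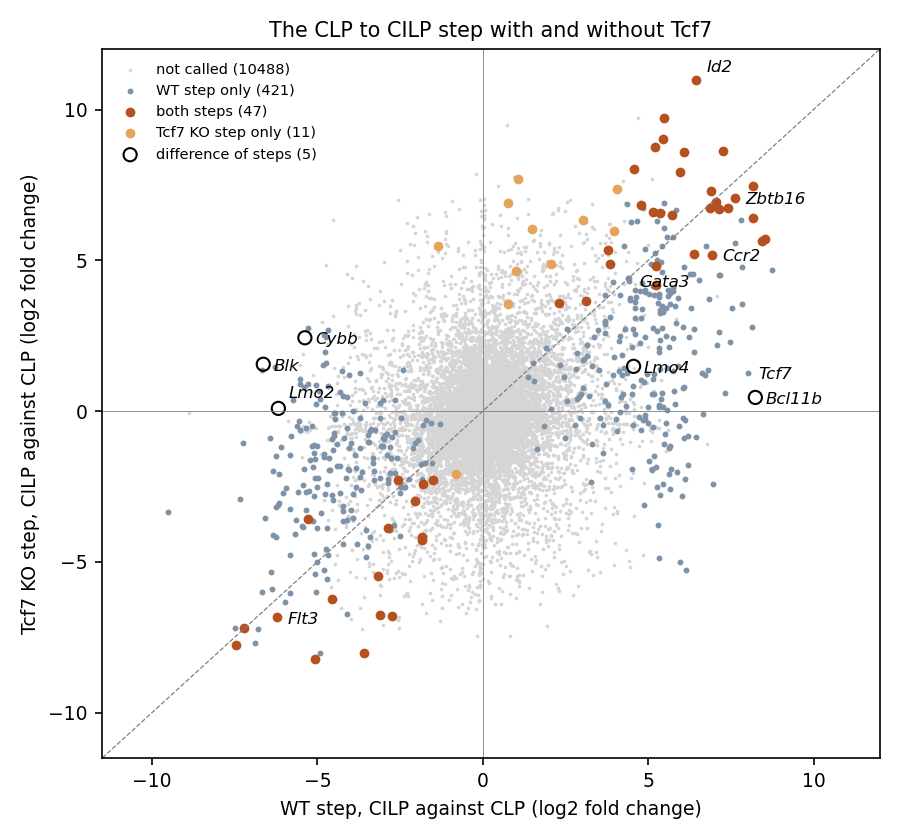
Log2 fold change of CILP against CLP for each of 10972 genes in wild type (x axis) and in the Tcf7 knockout (y axis), with genes called in neither step, in 1 step or in both marked by colour and the 5 genes whose steps differed ringed. The dashed line marks equal steps; 47 genes called in both lie in the upper right or lower left, and Bcl11b, Lmo4, Blk, Lmo2 and Cybb lie off the line.

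Among 15 regulators of ILC development, 2 rose in the knockout (Id2 and Zbtb16) and 0 fell, against 9 and 1 in wild type. Their median log2 fold change was 1.52 in the knockout and 4.30 in wild type. Over all genes tested, 0.365% were called higher and 0.164% lower in the knockout. The lists here and below share genes, so the same call can count in several lists. Tox, an HMG-box factor needed for ILC progenitors, stood at 8.94, 128, 78.4, 23.8 and 14.9 CPM in knockout CLP and 0, 479, 549 and 302 CPM in knockout CILP (adjusted p = 0.195). The 3 CILP libraries other than replicate 1 lay above all CLP libraries, and wild-type CILP held 337 to 930.1 CPM. Rora, which group 2 ILC require, was at 0 in all knockout CLP libraries and at 0, 50.7, 166 and 0 CPM in CILP (adjusted p = 0.0635, or 0.0291 without replicates 1 and 4). Zbtb7b, the gene of ThPOK, had 0, 0, 0, 19.1 and 0 and 0, 418, 243 and 107 CPM (adjusted p = 0.0642, or 0.0344 without those replicates). Ets1 stood at 1019.8, 691, 408 and 17.8 CPM in knockout CILP, with replicate 4 below every CLP library (105 to 244 CPM, adjusted p = 0.287). Nfil3, an early ILC factor, was close to 0 in both groups except in 1 CLP library (197, 0, 0, 0 and 0 against 0, 9.51, 12.8 and 0 CPM, adjusted p = 0.785), and Tox2 had a count in 1 knockout library only (0, 12.7, 0 and 0 CPM in CILP), against 6.89 to 444 CPM in wild-type CILP. Gfi1, Runx1, Runx3, Cbfb and Zeb2 were not called, with adjusted p between 0.26 and 0.991.

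None of 15 tested genes of the TCF and LEF factors and their cofactors was called in the knockout step, against 3 in wild type (Tcf7, Lef1 and Axin2). Lef1, the closest relative of TCF-1 in lymphocytes, had 0, 0, 6.53, 4.77 and 0 CPM in knockout CLP and 0, 60.2, 370.1 and 285 CPM in knockout CILP (log2 fold change 5.78 ± 1.64, adjusted p = 0.0731). Replicates 3 and 4 lay above the wild-type CILP range of 0 to 95.2 CPM, and replicate 1 had no count. Axin2, a β-catenin target, was at 0 in 8 of 9 knockout libraries and held 0 to 90.9 CPM in wild-type CILP (difference of steps -3.36, adjusted p = 1). Of 19 tested genes reported as TCF-1 targets in lymphocytes, 5 rose (Id2, Zbtb16, Pdcd1, Il1rl1 and Cxcr6) and Rag2 fell in the knockout, against 8 and 1 in wild type. Socs1, a brake on cytokine signalling, was called in wild type only: 0, 111, 191 and 88.9 CPM in knockout CILP and 91.5 to 452 CPM in wild type (difference of steps adjusted p = 0.516).

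Genes of the ILC groups were present in knockout CILP. Among 12 tested group 3 genes 2 rose, Cxcr6 among them, with a list median of 4.09 (4.03 with bounds). Cxcr6, a homing receptor of ILC progenitors, stood at 0, 12.8, 0, 0 and 0 and 0, 149, 115 and 71.1 CPM, a 32.6-fold ratio of means (log2 fold change 5.20 ± 1.11, adjusted p = 0.00573). Replicates 2 to 4 held more of it than any CLP library and replicate 1 had no count, and the call held in all 9 fits that left out 1 knockout library. Ccr6, a chemokine receptor of lymphoid-tissue-inducer cells, had 0 in CLP and 0, 108, 472 and 17.8 CPM in CILP (adjusted p = 0.0582, or 0.0331 without replicates 1 and 4). Il23r had 0, 82.4, 153 and 71.1 CPM in knockout CILP (adjusted p = 0.11) and 0 in all wild-type CILP libraries, and the difference of steps was not called (adjusted p = 0.175).

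Of 16 tested genes of group 1 ILC and natural killer cells, 3 rose: Eomes, Il2rb and Ccl5, against 6 in wild type. Ccl5, a chemokine of cytotoxic lymphocytes, stood at 8.94, 0, 39.2, 0 and 0 CPM in knockout CLP and 160.0, 2865, 983 and 658 CPM in CILP, a 121-fold ratio of means with no overlap (log2 fold change 6.73 ± 1.43, adjusted p = 0.0161). Il2rb, a receptor chain shared by IL-2 and IL-15, stood at 0, 12.8, 0, 0 and 0 and 0, 396, 306 and 35.6 CPM (adjusted p = 0.025). Eomes, a T-box factor of natural killer cells, was at 0 in CLP and at 0, 491, 153 and 0 CPM in CILP (adjusted p = 0.0305). Libraries 2 and 3 carried most of these counts and replicate 1 carried few or none. The calls depended on single libraries: Ccl5 passed in 4 of 9 fits that left out 1 knockout library (highest adjusted p 0.0688), Il2rb in 3 of 9 (highest 0.152) and Eomes in 2 of 9 (highest 0.152). Tbx21, the gene of T-bet, was seen in replicate 4 alone among the knockout libraries (0, 0, 0 and 338 CPM in CILP, adjusted p = 0.165). The list median was 2.52, or 0.68 with bounds.

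Group 2 genes were sparse. Of 13 tested 1 rose, Il1rl1, the receptor of the alarmin IL-33 (0, 6.34, 140.4 and 0 CPM in CILP, 0 in CLP, adjusted p = 0.0216); almost all of its level came from replicate 3, and without that library the adjusted p was 0.459, the highest of 4 losses among 9 fits. Icos, a costimulatory receptor of ILC2 and T cells, stood at 0, 34.9, 102 and 71.1 CPM in knockout CILP, of which 2 libraries exceeded the CLP range of 0 to 52.4 CPM, and at 175 to 1372 CPM in wild-type CILP. It was called in wild type (5.13 ± 0.80) and not in the knockout (1.07 ± 0.97), and the difference was not called (adjusted p = 0.247). Il17rb, the IL-25 receptor, had counts in 1 of 4 knockout CILP libraries (0, 105, 0 and 0 CPM) and in all wild-type ones (107 to 228 CPM; difference adjusted p = 0.315). Arg1, arginase, had 0 counts in all 9 knockout libraries and 0 to 476 CPM in wild-type CILP.

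Several receptors for cytokines, chemokines and costimulation rose. Ccr2, a chemokine receptor, stood at 17.9, 12.8, 13.1, 47.7 and 49.7 CPM in knockout CLP and 339.9, 1816, 1468 and 534 CPM in CILP, a 36.8-fold ratio with no overlap (log2 fold change 5.18 ± 0.81, adjusted p = 2.45e-05, passing in 9 of 9 fits). Of 9 tested costimulatory and inhibitory receptors 3 rose, as did 3 of 19 cytokine receptors, against 0.365% of all genes tested. Among the cytokine receptors, Il2rb and Il1rl1 were already counted in the group 1 and group 2 lists. Tnfrsf25, the death receptor DR3, was at 0 in CLP and at 0, 136, 294 and 907 CPM in CILP, at least 84-fold higher (adjusted p = 0.000894, passing in 9 of 9 fits). Pdcd1, the gene of PD-1, had 20, 136, 306 and 0 CPM (adjusted p = 0.034, highest 0.15 with 1 library left out). Wild-type CILP held 135 to 594 CPM of it, and 2 knockout libraries lay below that range. Il18r1 stood at 80.5, 0, 26.1, 19.1 and 59.6 and 40, 609, 842 and 427 CPM (adjusted p = 0.0226, highest 0.115 with 1 left out). Il7r, the receptor of the main lymphoid growth factor, was not called and varied widely between the CILP libraries (60, 2013, 1851 and 267 CPM against 821 to 1752 CPM in CLP), replicates 1 and 4 being the low ones.

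Further genes that rose without Tcf7 and passed in all 9 fits were Ikzf2, Adgrg5, Asb2 and Trbc1. Ikzf2, the gene of the zinc finger factor Helios, stood at 53.6, 51.3, 26.1, 81 and 9.94 and 1179.7, 1819, 599.9 and 302 CPM, a 22-fold ratio with no overlap (log2 fold change 4.20 ± 0.66, adjusted p = 2.45e-05). Adgrg5, an adhesion G-protein-coupled receptor, was at 0 in CLP and at 40, 602, 1059 and 267 CPM in CILP, at least 124-fold higher (adjusted p = 0.000624). Asb2 was at 0 in CLP and at 0, 162, 664 and 587 CPM in CILP (adjusted p = 0.00482, or 0.162 with DESeq2). Dll1, a Notch ligand, was at 0 in CLP and at 20, 177, 1123 and 142 CPM in CILP (adjusted p = 0.00612, 0.101 without CILP replicate 3 and 0.259 with DESeq2). Trbc1, a T cell receptor constant gene, was found in the knockout only in batch 2, with 839.8, 764, 0 and 0 CPM in knockout CILP and 0 in CLP (adjusted p = 4.85e-05). Wild-type CILP held 83.1 to 91.5 CPM of it in batch 1 and 2332 to 5495 CPM in batch 2, so batch moved with its level.

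In the genes called lower the knockout groups did not overlap, though these genes were called on the same values. Of 16 genes of recombination and lymphoid priming 5 fell in the knockout, among them Flt3, Dntt, Rag2 and Tcf4, and 7 in wild type, with medians of -1.91 and -1.60. Flt3 fell 293-fold by its means (log2 fold change -6.84 ± 1.34, adjusted p = 0.00163, passing in 9 of 9 fits). Dntt fell 39.4-fold (-6.25 ± 1.47, adjusted p = 0.0332, passing in 2 of 9 fits, highest 0.128). Rag2, the partner of Rag1 in antigen receptor recombination, stood at 250.3, 346, 118, 90.5 and 59.6 CPM in CLP and 0 in all CILP libraries, at least 28.8-fold lower (adjusted p = 0.0335), and lost its call in each of the 9 fits (0.0536 to 0.169) and without replicates 1 and 4 together (0.161). Rag1 stood at 608, 333, 536, 243 and 179 and 120.0, 0, 0 and 71.1 CPM, with its only CILP counts in replicates 1 and 4, and was not called (adjusted p = 0.232, or 0.0284 without them). Tcf4, an E protein, stood at 384, 821, 1973, 2731 and 2405 and 180.0, 377, 153 and 213 CPM (adjusted p = 0.0307, or 0.303 without replicates 1 and 4). Cox6a2 and Il12a, transcripts of the dendritic lineage list, fell together with Tcf4, and Xcr1 rose (0 in CLP, 0, 127, 472 and 213 CPM in CILP, adjusted p = 0.0332, passing in 2 of 9 fits with a highest of 0.122). Il12a stood at 206, 218, 91.5, 248 and 84.5 CPM in CLP and 0 in all CILP libraries of both genotypes (adjusted p = 0.0226, or 0.118 without replicates 1 and 4). Cox6a2 stood at 295, 462, 235, 434 and 566 and 20, 0, 0 and 0 CPM (adjusted p = 4.85e-05). Macroh2a1, a histone H2A variant, fell from 5114, 4348, 4665, 4704 and 4144 CPM to 1139.7, 909.6, 1034 and 711 CPM, 4.84-fold with no overlap (adjusted p = 0.000481). Adgrg3, Cnn3, Mpeg1, Arpp21 and BC035044 also fell, by 12.2 to 73.3-fold of their means, with no overlap. Of these Mpeg1 lost its call without replicates 1 and 4 (adjusted p = 0.111).

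None of 18 tested early B lineage genes was called in the knockout, whereas 9 fell in wild type. Their median log2 fold change was -0.20 in the knockout and -4.62 in wild type; under DESeq2 the knockout median was 0.04, so its sign depended on the tool. Blnk, a B cell adaptor protein, stood at 644, 564, 176, 415 and 219 CPM in knockout CLP and 140.0, 0, 0 and 53.4 CPM in knockout CILP, and at 0 in all wild-type CILP libraries (difference of steps 6.16, adjusted p = 0.0536). Ebf1, the factor that opens the B lineage program, stood at 679.8, 69.7, 0 and 0 CPM in knockout CILP against 0 to 3.72 CPM in wild-type CILP (difference adjusted p = 0.247). Vpreb3, a part of the pre-B cell receptor complex, stood at 1119.7, 174, 0 and 213 CPM against 0 to 22.3 CPM (difference adjusted p = 0.247), and Spib at 140.0, 19, 0 and 338 against 0 to 11.9 CPM (difference adjusted p = 0.0834). In each of these 4 genes replicate 3 had 0 counts and the high values lay in replicate 1 or 4. The summed level of the list was 0.71, 0.347, 0.227 and 0.29% in knockout CILP, 0.378 to 0.724% in knockout CLP and 0.127 to 0.334% in wild-type CILP. Blnk and Ly6d became calls without replicates 1 and 4 (adjusted p 0.00444 and 0.0167), both lower in CILP.

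Of 17 tested T lineage genes 1 rose in the knockout (Trbc1) and 5 in wild type. Thy1 stood at 53.6, 12.8, 0, 0 and 69.6 CPM in knockout CLP and 120.0, 450.1, 1098 and 88.9 CPM in CILP, with no overlap (adjusted p = 0.0642, or 0.0249 without replicates 1 and 4). Cd3d, a chain of the T cell receptor complex, had 0 counts in all 9 knockout libraries, against 0 to 201 CPM in wild-type CILP. Lck stood at 0, 155, 51.1 and 0 CPM in knockout CILP, against 201 to 587 CPM in wild type, where the lowest library exceeded the highest knockout one (difference of steps -3.03, adjusted p = 0.302). Cd27, a costimulatory receptor, stood at 80.5, 103, 222, 100.1 and 109 CPM in knockout CLP and 0, 0, 12.8 and 0 CPM in knockout CILP (adjusted p = 0.0635), and its difference of steps was -5.60 (adjusted p = 0.171).

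The step itself differed between genotypes for 5 genes (0.0456% of those tested), Bcl11b and Lmo4, which rose in wild type, and Blk, Lmo2 and Cybb, which fell there. None of the 5 was called in the knockout step. At an unadjusted p under 0.05 there were 996. Without knockout CILP replicates 1 and 4 there were 0 calls, with 2 knockout CILP libraries left, and DESeq2 called 21 genes with all libraries in. Bcl11b (chr12:107910403-108004145, minus strand, GRCm38.p6) encodes a zinc finger factor that commits T cells and group 2 ILC progenitors. It stood at 17.9, 12.8, 0, 0 and 14.9 CPM in knockout CLP and 0, 28.5, 0 and 0 CPM in knockout CILP, whereas wild-type CILP held 159.9, 469 and 920.3 CPM (lowest, median, highest) and wild-type CLP at most 5.96 CPM. The knockout groups overlap, and the lowest wild-type CILP library lay above all knockout ones. The steps were 0.45 ± 0.95 in the knockout and 8.24 ± 0.85 in wild type, a difference of -7.79 ± 1.42 (adjusted p = 0.00314). It passed in 23 of 24 fits that left out 1 library, and without knockout CLP replicate 5 the adjusted p was 0.0515; without CILP replicates 1 and 4 it was 0.089.

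Lmo4, a LIM-only cofactor, stood at 98.3, 295, 58.8, 248 and 124 CPM in knockout CLP and 199.95, 507, 957 and 160.1 CPM in knockout CILP, and wild-type CILP held 1683, 2552 and 3528 CPM. The knockout groups overlap, and every knockout CILP library lay below every wild-type one. The difference of steps was -3.07 ± 0.68 (adjusted p = 0.038), which passed in 9 of 24 fits (highest 0.153) and gave 0.493 without replicates 1 and 4. The knockout step of Lmo4 itself was not called (adjusted p = 0.203, or 0.0466 without those replicates). Blk, a Src-family kinase of B cells and of some innate-like T cells, stood at 26.8, 76.9, 19.6, 42.9 and 44.7 CPM in knockout CLP and 160.0, 101, 89.3 and 160.1 CPM in knockout CILP, and at 0 in all 7 wild-type CILP libraries. All 4 knockout CILP libraries held it, replicates 2 and 3 included (difference of steps adjusted p = 0.0255, 17 of 24 fits, highest 0.064, and 0.157 without replicates 1 and 4). Lmo2, a LIM-only factor of stem and progenitor cells, stood at 80.5, 103, 71.9, 958 and 69.6 and 839.8, 184, 0 and 320.1 CPM in the knockout and at 0 to 11.9 CPM in wild-type CILP (difference 6.27 ± 1.38, adjusted p = 0.038, 11 of 24 fits, highest 0.153). Without replicates 1 and 4 it gave 0.606. Cybb, a subunit of the phagocyte oxidase, stood at 161, 25.6, 65.3, 305 and 258 CPM in knockout CLP and at 1459.7, 0, 0 and 872 CPM in knockout CILP (adjusted p = 0.0261, 14 of 24 fits, highest 0.352). Its CILP counts came only from replicates 1 and 4, the 2 libraries highest in myeloid markers, and without them the difference was -1.74 (adjusted p = 1). Replicate 2, intermediate in those markers, had no Cybb count.

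**Figure D4:**
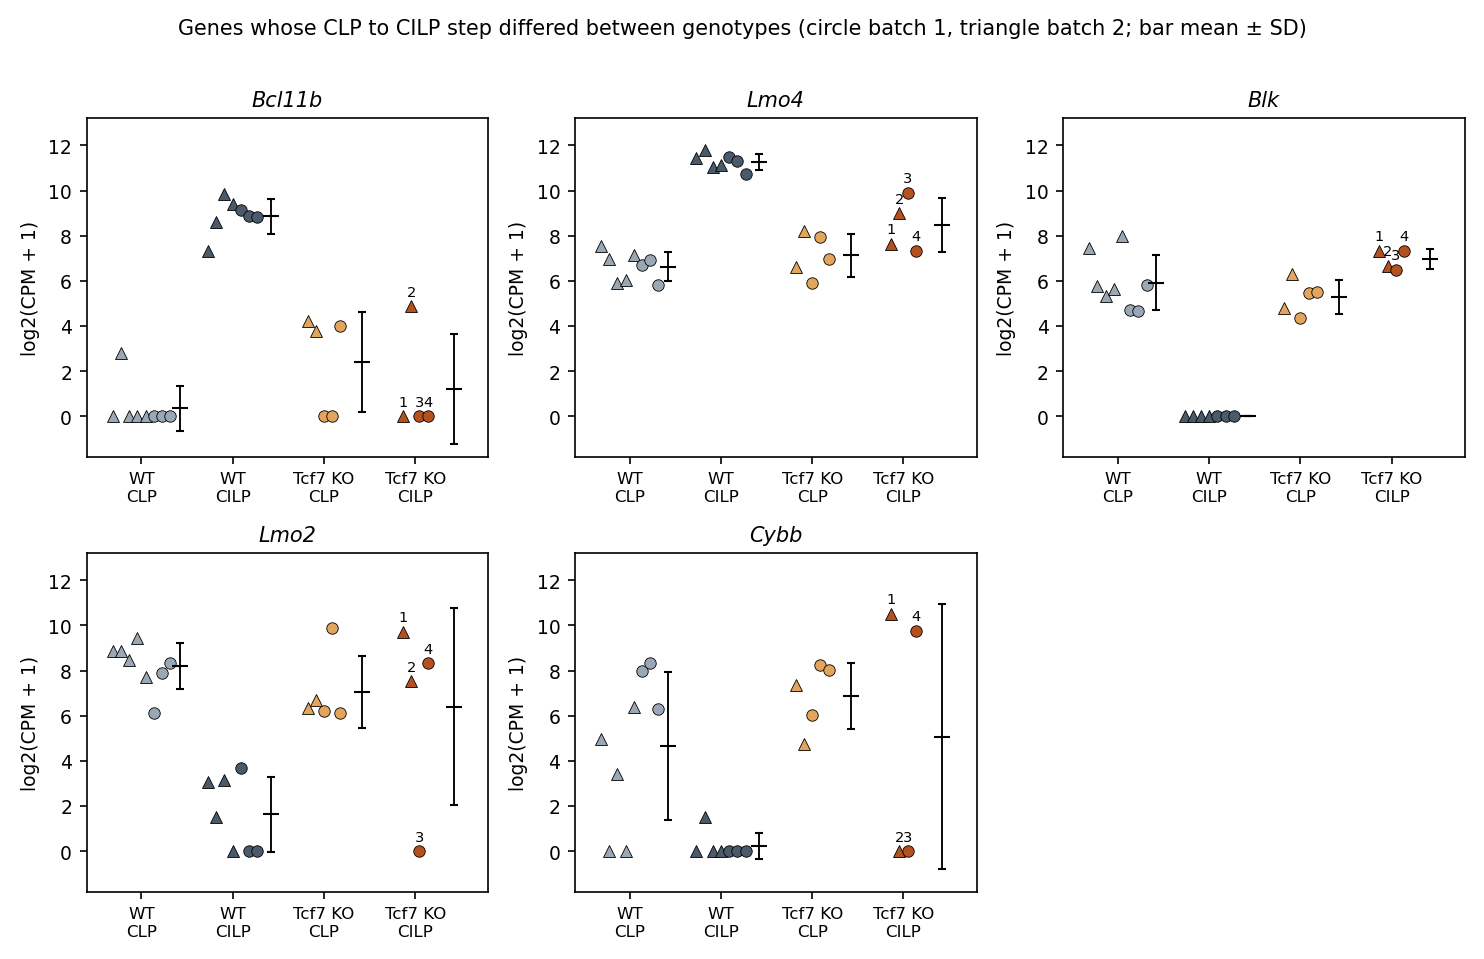
Level in log2(CPM + 1) of the 5 genes whose CLP to CILP step differed between wild type (WT) and Tcf7 knockout (KO), in each library (circles batch 1, triangles batch 2, knockout CILP numbered by replicate; bars mean ± SD). Bcl11b and Lmo4 stay below every wild-type CILP library, Blk is present in all 4 knockout CILP libraries and absent from the 7 wild-type ones, and Cybb is seen in knockout CILP replicates 1 and 4.

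TCF and LEF factors bind sequences with the core CTTTGAT or CTTTGAA, so the 250 bases before the RefSeq start (GRCm38.p6) were searched for both on both strands. A base run can match only 1 of them, since they differ in their last letter. The windows of Bcl11b, which had the lowest p for a difference of steps, and of Flt3, a gene that fell, are shown with their match in capitals. The RefSeq start used for Bcl11b lies inside the gene's full span, which begins at another transcript.
Bcl11b, chr12:108003415-108003664, minus strand: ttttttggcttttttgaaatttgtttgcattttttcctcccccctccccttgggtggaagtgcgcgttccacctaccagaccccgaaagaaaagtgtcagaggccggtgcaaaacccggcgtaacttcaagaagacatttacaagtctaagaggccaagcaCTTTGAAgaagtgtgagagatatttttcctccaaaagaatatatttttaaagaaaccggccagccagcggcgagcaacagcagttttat
Flt3, chr5:147400490-147400739, minus strand: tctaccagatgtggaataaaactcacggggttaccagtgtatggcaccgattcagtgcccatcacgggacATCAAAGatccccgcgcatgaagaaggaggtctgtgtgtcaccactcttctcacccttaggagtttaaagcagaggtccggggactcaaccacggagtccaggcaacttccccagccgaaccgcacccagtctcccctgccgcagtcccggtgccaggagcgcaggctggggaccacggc
Bcl11b holds CTTTGAA, with its first base 89 bases before the end of the window, and Flt3 holds CTTTGAT on the opposite strand, 180 bases before it. CTTTGAT was in 3.21% and CTTTGAA in 4.46% of all 32851 windows of the table. Among genes called in the knockout step with a window, 2 of 41 held CTTTGAT (Flt3 and Arpp21) and 2 of 41 held CTTTGAA (Cd160 and Mgat1, the latter not called without CILP replicates 1 and 4, adjusted p = 0.343), 4.88% each, against 2.88% and 3.93% of 8482 genes tested. Of 27 called higher, 0 held CTTTGAT and 1 held CTTTGAA, against 2 and 1 of the 14 called lower. Of the 3 genes with a window whose steps differed, 0 held CTTTGAT and 1, Bcl11b, held CTTTGAA. Both windows shown hold a match, unlike most windows searched. A match is a description of these letters and not a site that was measured.

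In all, 11 genes called in the knockout step were not called in wild type, and for none of them was the difference of steps called. Those that rose, 10 in number, were Il1rl1, Phlda1, Sla, Il2rb, Cd82, Gata2, Slc41a3, Arnt2, Adgre5 and Hp, and Crip1 fell (2959, 1629, 921, 1673 and 2549 against 559.9, 504, 396 and 427 CPM, adjusted p = 0.0332, or 0.169 without CILP replicates 1 and 4). Sla, an adaptor that dampens antigen receptor signalling, stood at 0, 0, 45.7, 133 and 39.8 and 40, 1173, 842 and 302 CPM (log2 fold change 3.55 ± 0.80, adjusted p = 0.0118; 5 of 9 fits, highest 0.0901), with a difference of steps at an adjusted p of 0.284. Gata2, a factor of stem, mast and megakaryocyte cells, stood at 0, 0, 52.3, 0 and 0 and 999.8, 326, 12.8 and 178 CPM and was not called without CILP replicates 1 and 4 (0.158). Hp, haptoglobin, had 459.9 of its CPM in replicate 1 and lost its call without it (adjusted p = 0.539, and 0.503 without replicates 1 and 4). Cpa3, a mast cell protease also known from early progenitors, stood at 0, 0, 19.6, 0 and 0 and 0, 634, 281 and 17.8 CPM in the knockout, was called in both genotypes (adjusted p = 0.0128 in the knockout, highest 0.158 with 1 library left out), and kept its call without replicates 1 and 4 (0.00334).

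The other lists held few or no calls in the knockout. No gene was called among 29 cell cycle genes, of which 6 fell in wild type (Top2a, Ccna2, Cdk1, Rrm1, Rrm2 and Bub1), nor among 19 interferon response genes, 18 immediate early and heat shock genes, 9 Notch receptors and targets, 9 Bcl2 family genes and 9 MHC class II genes. The cell cycle median was -0.21 in the knockout and -1.35 in wild type, and its sign in the knockout turned to 0.27 with DESeq2's size factors. Kit, the stem cell factor receptor, was not called among 12 stem and progenitor genes (143, 128, 144, 76.2 and 4.97 against 979.8, 301, 740.3 and 107 CPM, adjusted p = 0.246). Homing genes had 2 higher and 1 lower of 16, and Id and E protein genes had 1 in each direction of 11 (Id2 and Tcf4). Of markers of other cells, 0 of 16 myeloid genes, 1 of 12 erythroid and megakaryocyte genes (Itga2b, adjusted p = 0.0541 without replicates 1 and 4), 2 of 8 mast cell genes (Cpa3 and Gata2), 0 of 14 plasma and mature B cell genes and 1 of 6 mature T cell genes (Trbc1) rose. The tested myeloid and erythroid genes had medians of 2.34 and 3.59, or 1.35 and 3.22 with bounds and 1.24 and 1.65 under limma-voom. Their part in the other differences was not tested beyond leaving out replicates 1 and 4, in which their summed level was highest.

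**Figure D5:**
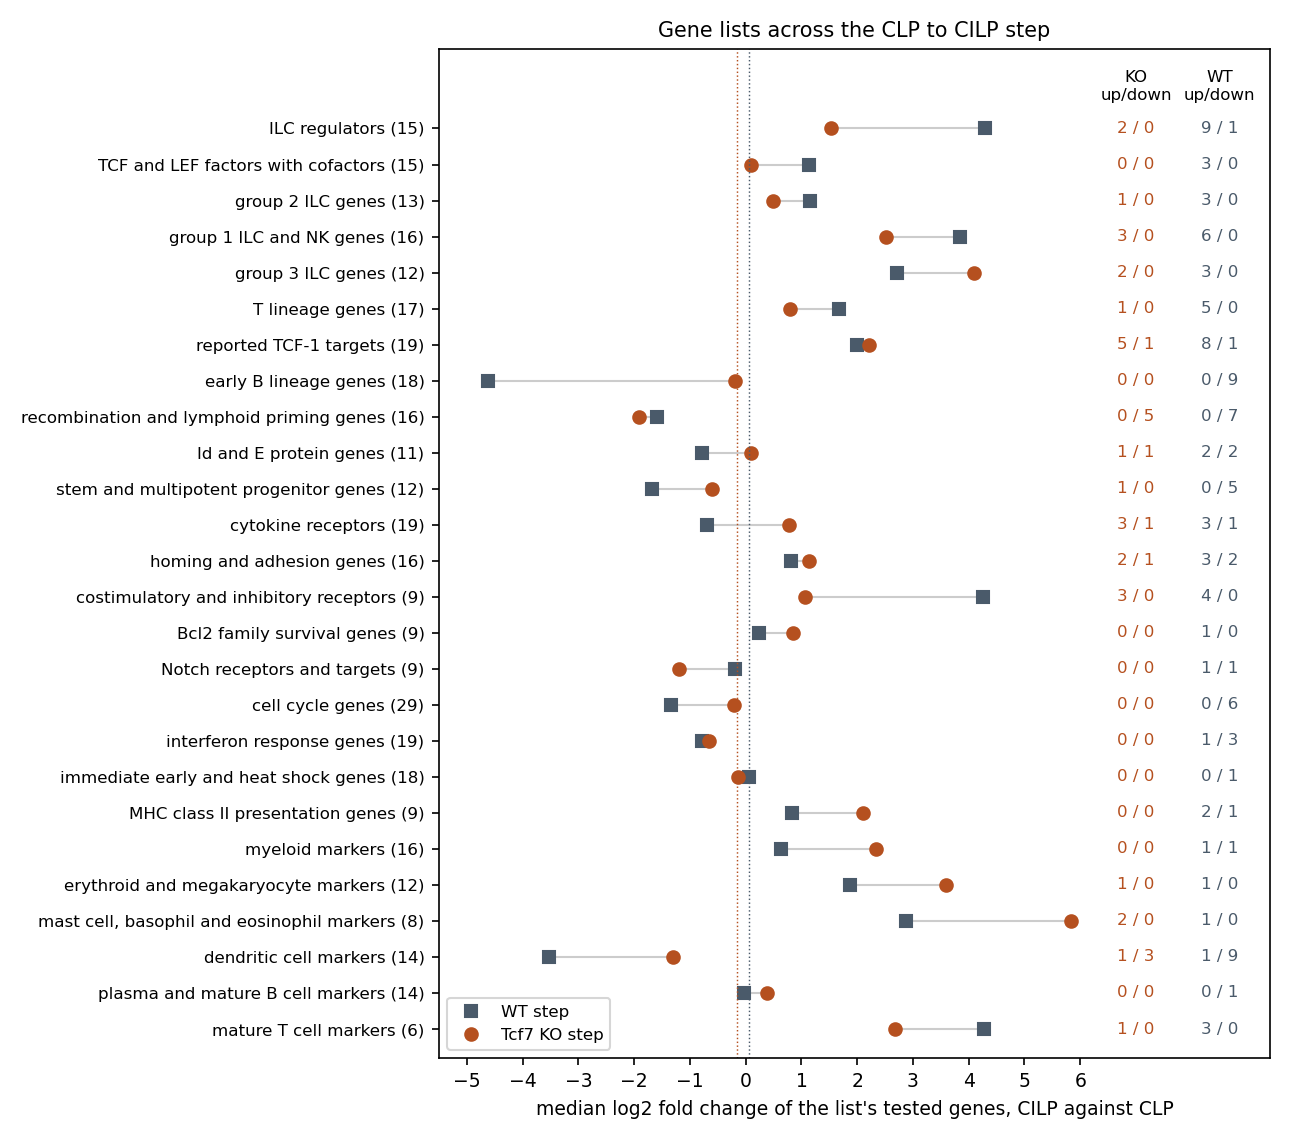
Median log2 fold change of CILP against CLP over the tested genes of 26 lists in wild type (squares) and the Tcf7 knockout (circles), with the number tested in brackets, the numbers called higher and lower at the right, and the medians over all genes as dotted lines. The ILC regulators lie at 1.52 in the knockout and 4.30 in wild type, and the early B lineage genes at -0.20 and -4.62.

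Wells with spike-in RNA and no cells give the background. Across 12 such wells, total counts on genes ran from 51 to 9439 (median 349.5). Of the 58 genes called in the knockout step 24 had a count in some well, at most 28 in 1 well (Hp). Id2 had 14 counts over the 12 wells, 13 of them in 1 well. Gata3 had 33, all in 1 well, Il1rl1 had 8, all in 1 well, and Tcf7, Zbtb16, Lmo2, Lmo4 and Blk had 0. These are raw counts, and at the median depth of knockout CILP 1 count was worth well above 10 CPM. The Gata3 levels of knockout CILP replicates 1 and 4 (140 and 88.9 CPM) therefore rest on fewer counts than the 1 well with Gata3 held. The Id2 level of knockout CILP replicate 4 (231 CPM) rests on no more counts than the 13 in 1 well.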

How the data were processed

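RNA of 100 sorted cells per sample was measured by CEL-seq. The authors deposited 2 tables of raw counts per Entrez gene, 1 for each sequencing batch. Per the submitters' processing notes, CASAVA 1.8.2, featureCounts, edgeR (3.8.2, 3.22.0) and limma were run on build mm10. No source used here gives the aligner or states molecular identifiers, so counts can include PCR copies. Symbols and coordinates came from RefSeq (GRCm38.p6), which matched 25275 of 27179 identifiers (92.99%).

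The deposited counts of 4 technical repeats were added to their samples, and 1 wild-type CILP library that the submitters call an outlier was left out, as were 6 Nfil libraries and, apart from the background they give, 12 control wells. edgeR 4.0.16 (R 4.3.3) fitted 47 libraries, the wild-type, Tcf7 knockout and Id2 knockout groups, so that they share 1 estimate of spread (35 residual degrees of freedom), after filterByExpr (minimum count 10, minimum total 15) and TMM scaling, with robust quasi-likelihood, group means and batch. The fitted groups included cell types outside this step, labelled a4b7_CLP, ILCP and ILC2P, which entered the shared estimate of spread. Contrasts were CILP minus CLP in each genotype and their difference. CPM used the scaled totals, with a pseudocount of 1 for log2 values. Alternatives were DESeq2 1.42.0, limma-voom (3.58.1), each library left out in turn, a fit of the compared groups alone, DESeq2 size factors, fits within batch 1 or batch 2, no filter, the outlier put back, shallow libraries left out and no term for batch; leaving out knockout CILP replicates 1 and 4 together was chosen after seeing the data.

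The libraries, gene lists and tests were chosen with earlier results of these data known. Named genes are Tcf7, Lef1, the ILC regulators, up to 3 genes of each other list with the lowest adjusted p, up to 12 called genes in each direction with the largest change and at least 20 CPM, and the genes whose steps differed. Further genes of the lists, and the genes called in the knockout step alone, were named after their values were seen. Some genes are not reported here.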

Additional observations from a re-analysis of the deposited data

Results flagged for a closer look

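The CLP to CILP step differed between knockout and wild type for 5 genes by the interaction test of the whole fit. The differences, knockout minus wild type in log2, were -7.79 for Bcl11b, -3.07 for Lmo4, 8.19 for Blk, 6.27 for Lmo2 and 7.81 for Cybb. Blk was at 0 in all wild-type CILP libraries, so the size of its fitted value is not a bound.

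Single libraries lay far from the rest of their group by Dixon's test at its 95% critical value in 6 of 32 groups of values. The test's rate of about 1 in 20 assumes normal values, so no excess over it can be read here. A group with only 1 library above 0 is flagged whatever its level. This was so for Bcl11b in knockout CILP and for the mast cell list in knockout CLP. Among knockout CLP, replicate 4 held 0.455% of its scaled total in myeloid markers and 957.9 CPM of Lmo2, replicate 3 held 0.00719% in mast cell, basophil and eosinophil markers, and replicate 1 held 0.0599% in mature T cell markers. Among knockout CILP, replicate 2 had a total of 432561 counts and 28.5 CPM of Bcl11b, and it was the only library of that group with a Bcl11b count.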

How the results depend on the processing

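The count of genes called in the knockout step, 58, was 151 with DESeq2, 294 with limma-voom, 109 without a filter on low counts, 166 in batch 1 alone, 1 in batch 2 alone and 25 of 2432 genes tested when only the 2 knockout groups entered the fit. Of those 25, 7 were higher and 18 lower in CILP, against 40 and 18 in the main fit. Leaving out 1 library gave 25 to 66, fewest without knockout CLP replicate 4, and 7 of the 9 fits moved the count by over 1.5 times: each without 1 of the 5 CLP libraries or without CILP replicate 2 or 3. The wild-type count of 473 was 729 with limma-voom, 168 in batch 1 alone, 105 in batch 2 alone and 182 of 3088 genes tested with only its 2 groups (353 to 439 with 1 library left out). The count of differences, 5, was 21 with DESeq2, 39 with limma-voom, 10 with DESeq2 size factors, 31 without a filter, 3 without a batch term, 20 in batch 1 alone, 0 in batch 2 alone, 14 of 5811 genes tested with only the 4 groups and 0 without knockout CILP replicates 1 and 4, and 0 to 8 with 1 library left out. The cause of these changes was not tested. Without those replicates the Cybb difference turned to -1.74. Of 2730 values of single genes under an alternative, 2229 kept their side of the threshold, 413 lost a call, 87 gained one and 1 reversed. The 2229 include 58 values, called in neither fit, that changed sign. Medians of 15 of 26 lists had the same sign in both batches. A pseudocount of 10 CPM left the exact tests of Gata3, Id2, Zbtb16 and Tcf7 on the same side. The median of 56609 counts in knockout CILP limits what a 0 shows.

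No paired analysis was possible because the replicate numbers were given in accession order and only name libraries.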
